A study of Mus musculus with 2 samples.

Results

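The genes numbered Mir6896 to Mir7092 are microRNA (miRNA) genes of the mouse, annotated as hairpins within protein-coding genes, nearly all of them in introns. Every row of the count tables whose GENCODE symbol is Mir followed by a number in the range of Mir6896 to Mir7092, with any suffix, was taken, which gave 176 of 1973 genes. They covered 174 of the 197 numbers in this range, and the genes of the other numbers were not analysed here. The libraries were made from small RNA below 30 nucleotides of whole thymus, where T cells develop. Both lobes were taken from each of 2 newborn pups of 1 litter (strain B6NCrl, postnatal age 0 days); the labels name no allele and no treatment. Replicate 1 was pup 2 and replicate 2 was pup 3, with 1 library each, so the study holds 1 group and no contrast between conditions. A single donor identifier stands for both pups in the labels, and their sex was not recorded.

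Most miRNAs are cut from long transcripts by the nuclear enzyme Drosha and then from a short hairpin by Dicer. A mirtron takes another route: a short intron is spliced out, its lariat is opened, and the intron itself folds into the hairpin that Dicer cuts. In a tailed mirtron only 1 end of the hairpin is a splice site, and the rest of the intron is trimmed away. Where that end is the 3′ end of the intron, the 3′ arm carries the pyrimidine-rich stretch and the AG that close an intron.

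The hairpins of 4 of the more abundant members show the different positions within an intron. They are shown as RNA, 5′ to 3′, from RefSeq (GRCm38.p6), with the first GU or last AG of the intron in capitals where that hairpin end is an intron end. Mir7058 fills a whole intron of Lat, Mir6996 and Mir7007 close longer introns of Notch1 and Cpa3, and Mir6936 opens an intron of Sirt7.
Mir7058: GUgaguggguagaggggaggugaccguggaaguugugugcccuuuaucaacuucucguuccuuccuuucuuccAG
Mir6996: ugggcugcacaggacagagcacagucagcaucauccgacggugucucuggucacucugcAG
Mir7007: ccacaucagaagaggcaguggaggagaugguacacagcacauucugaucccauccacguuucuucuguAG
Mir6936: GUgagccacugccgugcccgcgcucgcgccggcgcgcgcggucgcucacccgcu

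The mature arms that RefSeq annotates on abundant members follow, with the seed (bases 2 to 8, the part that pairs with targets) in capitals. They are shown to compare the 5p arms with the 3p arms, which end in the AG that closes the intron in 8 of the 10 genes, all but Mir6936 and Mir7007. No seed printed here occurs in 2 of these 10 genes, although Mir6897 shares that of its 3p arm with Mir5106 and Mir6975 that of its 5p arm with Mir7005. Counts per gene do not say which arm, or which other piece of the intron, was sequenced.
miR-6936-5p: gUGAGCCAcugccgugcccgc
miR-6936-3p: cGGCGCGCgcggucgcucacc
miR-7007-5p: uCAGAAGAggcaguggaggagau
miR-7007-3p: cCCAUCCAcguuucuucu
miR-7058-5p: uAGAGGGGaggugaccguggaagu
miR-7058-3p: cUCGUUCCuuccuuucuuccag
miR-6900-5p: uGCCAGGAgaagccuagagccguc
miR-6900-3p: uGGUGAUGggcucucuuguag
miR-6897-5p: uGGGGGCAgugucacacgcuguu
miR-6897-3p: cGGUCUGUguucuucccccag
miR-6934-5p: uUGGUGGAgacagcaagggugg
miR-6934-3p: aCCUCUGCuccugccccaccag
miR-7083-5p: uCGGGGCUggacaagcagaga
miR-7083-3p: uCUGCUCUccuggaccccag
miR-6996-5p: uGCACAGGacagagcacaguc
miR-6996-3p: cGGUGUCUcuggucacucugcag
miR-6975-5p: gCUGGGGAgaaagggguuuggca
miR-6975-3p: uCUCUCCUuucuccuccuag
miR-6935-3p: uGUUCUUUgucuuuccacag

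The libraries held 10642220 and 4892171 reads, of which 2734133 and 1289151 lay on the strand of a miRNA gene. Levels are given as counts per 1000000 of these gene-strand counts (CPM). A single count was worth 0.366 CPM in replicate 1 and 0.776 CPM in replicate 2. A count of 0 allows up to 3 counts, or 1.10 and 2.33 CPM. Replicate 1 was 2.12 times deeper, so a gene at the same level was more easily seen in it. Among markers of a thymus, Mir181a-1 of thymocytes had 101764 and 46465 counts and Mir205 of epithelium 25552 and 13413. Markers of 1 cell type differed widely. Mir181b-1, also of thymocytes, had only 362 and 110. Of mesenchyme, Mir143 had 117537 and 73870, above Mir181a-1, but Mir199a-1 had 6 and 2. Markers of other tissues included Mir206 of skeletal muscle with 1217 and 570, above Mir181b-1. Mir122 of liver had 213 and 155, and Mir208b of heart 60 and 238. The muscle markers Mir1a-1 and Mir133a-1 had 0 in both libraries. Reads that mapped to several places, 56.3% and 57.5% of the libraries, were tallied apart from genes. The counts of a gene thus miss reads of any sequence found at several places. Low or 0 counts, as for Mir1a-1, Mir133a-1, Mir199a-1 and Mir181b-1, therefore do not show that a miRNA was absent or scarce. Only 2 of the 176 members, Mir6970 and Mir7065, share 20 bases with another miRNA gene of the tables. Both libraries come from littermates, so the spread between them is that of 2 samples and may be partly technical. Intervals cover counting error only, since they are exact binomial intervals of the counts. No molecular identifiers are described, so reads may not stand for separate molecules.

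Counts of the Mir6896 to Mir7092 genes were very low throughout. At least 1 count in both libraries was found for 54 of 176 members (30.7%), against 26.2% of all genes. None of the 176 reached 10 counts in both libraries, against 14.9% of all genes. A further 62 members had counts in 1 library only, 46 of them in replicate 1 and 16 in replicate 2, and 60 members (34.1%) had 0 in both, against 65.3% of all genes. Of all genes, 931 have no symbol of Mir plus a number, and only 2.69% of these had a count in both libraries. In 95.2% of the 931 both counts were 0, so the shares of all genes rest largely on them. Of the 465 genes from Mir1 to Mir999, 65.8% had at least 1 count in both libraries and 53.5% at least 10. Another 28.2% of that range had 0 in both. These shares are descriptions and were not tested against each other. The count of 54 may depend on depth. With the counts of replicate 1 divided by the depth ratio of 2.12, 35 members kept at least 1 in both. That division puts every member with 1 or 2 counts in replicate 1 below 1. The 35 is therefore not the number that a shallower library would show.

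The 176 members summed to 367 counts in replicate 1 and 140 in replicate 2. This was 134 CPM (exact 95% interval 121 to 149) and 109 CPM (91.4 to 128), or 0.0134% and 0.0109% of the assigned counts, with a mean of 121 CPM ± 18.1 (SD, n = 2). Scaled to total counts, the log2 ratio of the sums, replicate 2 over replicate 1, was -0.31 (exact 95% interval -0.60 to -0.021), and -0.37 (-0.66 to -0.087) with TMM scaling. Both intervals lay below 0, but they cover counting error only and not the spread between pups or libraries. The highest count of any member was 16 in replicate 1 and 8 in replicate 2. In replicate 1, 7 members had 10 or more counts, 20 had 5 to 9, 41 had 2 to 4, 32 had 1 and 76 had 0. In replicate 2, no member had 10 or more, 7 had 5 to 9, 20 had 2 to 4, 43 had 1 and 106 had 0. The members thus spread few reads over many genes: the 12 most abundant held 33.0% of the summed counts of replicate 1 and 38.6% of those of replicate 2.

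Reads of the members lay almost only on the strand of the gene. The opposite strand had 1 count in replicate 1, over Mir7078 in an intron of Cmip, and 0 in replicate 2. This was 0.272% of the members' counts on both strands in replicate 1 (exact 95% interval 0.00688 to 1.505) and 0 of 140 in replicate 2 (upper bound 2.60%). Over all genes, 14.6% and 14.3% of the counts lay opposite to the gene, but in the Mir5000 to Mir6895 genes these shares were 0.253% and 0.262%. The 37 other genes that end at an intron's 3′ end had 0 opposite counts beside 2099 and 1012 on the gene strand, so a low share is not particular to the members. Unstranded counts gave the same 54 members in number and again none with 10 counts in both.

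Members were ordered by mean CPM. Mir6971 (ENSMUSG00000098458.1, GRCm38 chromosome 17, 34841809 to 34841871, minus strand) had 10 counts in replicate 1 and 8 in replicate 2, or 4.93 CPM ± 1.80. It closes a 135-base intron of Skiv2l, an RNA helicase that works with the cytoplasmic exosome. Mir6936 (ENSMUSG00000098282.1, chromosome 11, 120624823 to 120624876, minus strand) had 16 and 5 counts, or 4.87 CPM ± 1.40, the highest count of any member in replicate 1. It starts at the first base of a 66-base intron of the deacylase gene Sirt7 and ends 12 bases before the intron does. Mir7007 (ENSMUSG00000099105.1, chromosome 3, 20222290 to 20222359, minus strand) had 15 and 5 counts, or 4.68 CPM ± 1.14, at the end of a 942-base intron of Cpa3, a carboxypeptidase of mast cells. Mir6900 (ENSMUSG00000098288.1, chromosome 1, 92464483 to 92464542, minus strand) had 10 and 6 counts, or 4.16 CPM ± 0.705, inside a 2898-base intron of Ndufa10, a subunit of respiratory complex I. Mir6897 (ENSMUSG00000098752.1, chromosome 1, 36144252 to 36144313, minus strand) had 9 and 6 counts, or 3.97 CPM ± 0.963, in a 1780-base intron of Uggt1, which senses misfolded glycoproteins. No other member reached 5 counts in both libraries, so these 5 genes head the range on that measure.

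Mir7058 (ENSMUSG00000099017.1, chromosome 7, 126367971 to 126368045, minus strand) had 14 counts in replicate 1 and 4 in replicate 2, or 4.11 CPM ± 1.43. Its hairpin is the whole 75-base intron of Lat, the adaptor that links the T cell receptor to its signalling pathway. A Lat transcript annotated with a retained intron holds the same bases as exon. Mir6996 (ENSMUSG00000098548.1, chromosome 2, 26470059 to 26470119, minus strand), at the end of a 215-base intron of Notch1, the receptor that commits progenitors to the T cell lineage, had 10 and 2 counts, or 2.60 CPM ± 1.49. Mir6951 (ENSMUSG00000099110.1, chromosome 15, 38490473 to 38490547, minus strand), which closes a 1003-base intron of the polyamine regulator Azin1, had 12 and 2 counts, or 2.97 CPM ± 2.01. Its hairpin had 25.3% G and C, the lowest of all members. For these 3 genes the count in replicate 2 was at or near the limit that a count of 0 allows.

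The remaining genes among the 12 highest lay in genes of several kinds. Mir6934 (chromosome 11, 119154076 to 119154137, minus strand), in the Rab regulator gene Tbc1d16, had 8 and 4 counts, or 3.01 CPM ± 0.125. Mir6935 (chromosome 11, 120347350 to 120347413, minus strand), within the cytoplasmic actin gene Actg1, had 4 and 5 counts, or 2.67 CPM ± 1.71. Mir7083 (chromosome 9, 21809941 to 21810000, minus strand), in Dock6, a guanine nucleotide exchange factor, had 8 and 3 counts, or 2.63 CPM ± 0.423. Mir6975 (chromosome 17, 35244075 to 35244135, plus strand), in the mRNA export helicase gene Ddx39b, had 5 and 4 counts, or 2.47 CPM ± 0.901. The order within these 12 is not resolved, because 1 count moved a level by 0.366 or 0.776 CPM. For all 176 members the exact 95% intervals of the levels in the 2 libraries overlapped.

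**Figure D1:**
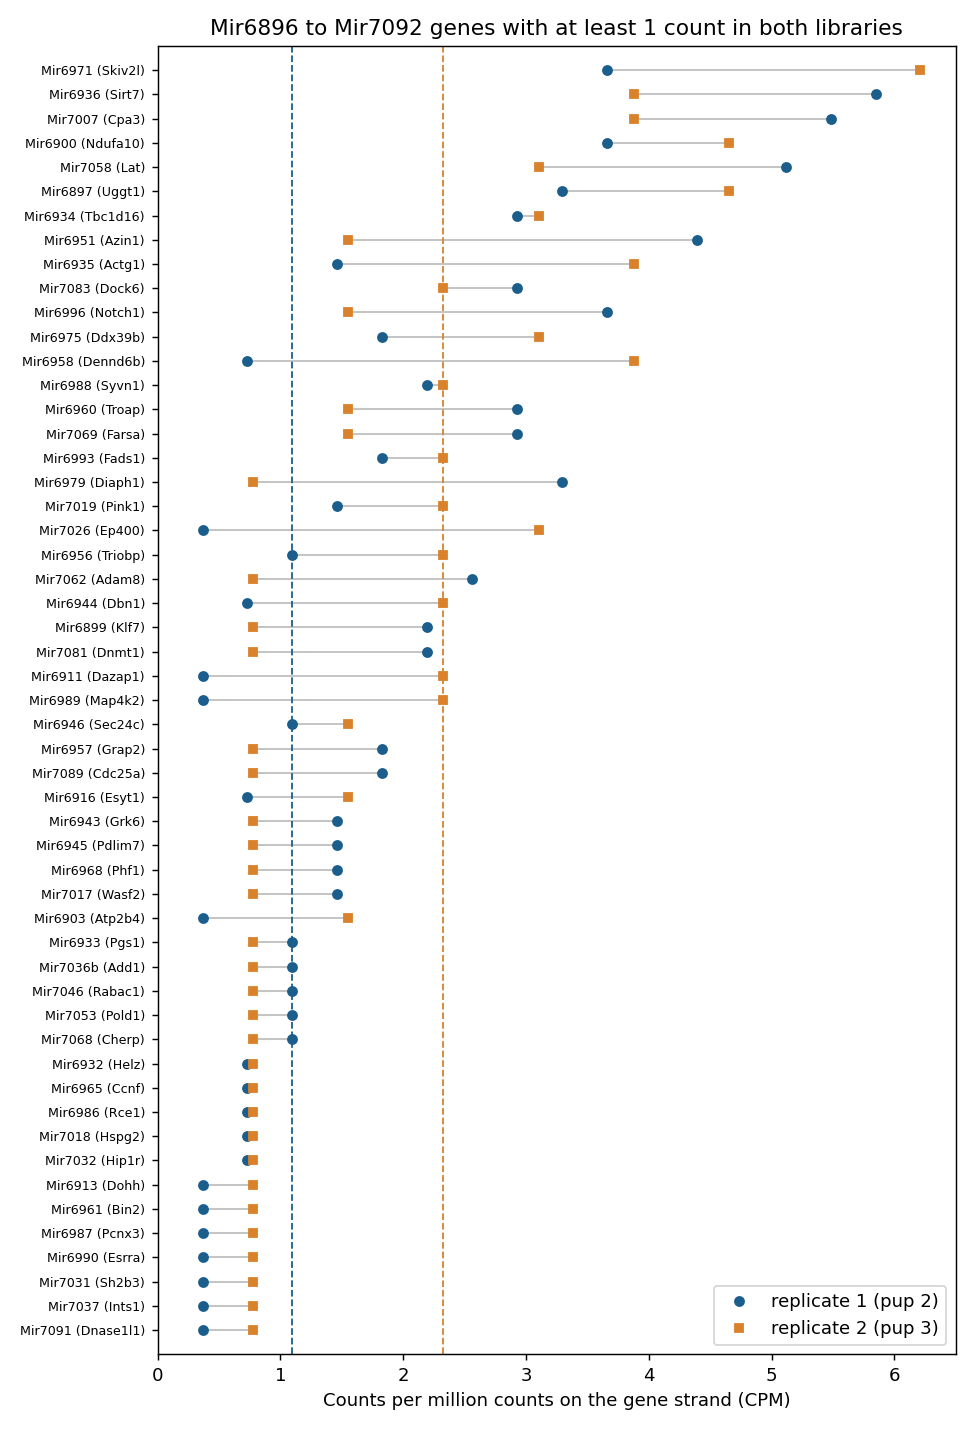
Level in CPM (horizontal axis) of 53 of the 54 members with at least 1 count in both libraries, with the host gene in brackets; circles are replicate 1, squares replicate 2, and dashed lines mark 3 counts in each library (1.10 and 2.33 CPM). In replicate 2 most genes lie at or left of its line, whereas in replicate 1 many lie right of its line. The 7 genes at the bottom had 1 count in each library.

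The 54 members with at least 1 count in both libraries lay in 54 different host genes. The count tables hold no messenger RNA, so the level of the hosts was not measured. Hosts of immune cells were Lat, Notch1 and Cpa3 and, in addition, Grap2 (Mir6957, 5 and 1 counts), an adaptor of T cell receptor signalling, and Sh2b3 (Mir7031, 1 and 1), an adaptor that restrains cytokine signalling in blood cells. Hosts of replication, the cell cycle and DNA methylation were Cdc25a (Mir7089, 5 and 1 counts), a phosphatase that drives entry into S phase, Ccnf (Mir6965, 2 and 1), Pold1 (Mir7053, 3 and 1), a DNA polymerase subunit, Dnmt1 (Mir7081, 6 and 1), the maintenance DNA methyltransferase, and Troap (Mir6960, 8 and 2).

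Hosts of RNA processing and translation included Skiv2l, Ddx39b, Ints1 (Mir7037, 1 and 1 counts) and Farsa (Mir7069, 8 and 2), a transfer RNA synthetase subunit. Cytoskeletal hosts were Actg1, Diaph1 (Mir6979, 9 and 1), Wasf2 (Mir7017, 4 and 1), Dbn1 (Mir6944, 2 and 3), Add1 (Mir7036b, 3 and 1), Triobp (Mir6956, 3 and 3), Pdlim7 (Mir6945, 4 and 1) and Hip1r (Mir7032, 2 and 1). Mitochondrial hosts included Ndufa10 and Pink1 (Mir7019, 4 and 3), a kinase that marks damaged mitochondria. Hosts of protein folding and traffic included Uggt1, Syvn1 (Mir6988, 6 and 3) and Sec24c (Mir6946, 3 and 2). These groups were formed by hand after the values were seen, from no fixed list, so no sum is given for them and they describe the hosts only. None of the groups is complete, and hosts listed below as other may have the same functions.

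Other hosts of members with counts in both libraries were Sirt7, Tbc1d16, Azin1, Dock6, Dennd6b (Mir6958, 2 and 5 counts), Fads1 (Mir6993, 5 and 3), Ep400 (Mir7026, 1 and 4), Adam8 (Mir7062, 7 and 1), Klf7 (Mir6899, 6 and 1), Map4k2 (Mir6989, 1 and 3) and Dazap1 (Mir6911, 1 and 3). Further hosts were Esyt1 (Mir6916), Grk6 (Mir6943), Phf1 (Mir6968), Atp2b4 (Mir6903), Rabac1 (Mir7046), Cherp (Mir7068), Pgs1 (Mir6933), Rce1 (Mir6986), Helz (Mir6932), Hspg2 (Mir7018), Dohh (Mir6913), Bin2 (Mir6961), Pcnx3 (Mir6987), Esrra (Mir6990) and Dnase1l1 (Mir7091). The members of this second set had at most 4 counts in replicate 1 and 2 in replicate 2. Of the 54 members, 28 had a single count in replicate 2, and 7 had a single count in each library. Scaled to depth, 24 of the 54 were higher in replicate 1 and 30 in replicate 2. A minimum of 1 count asks for 0.776 CPM in replicate 2 but only 0.366 CPM in replicate 1. The selection of the 54 thus favours higher levels in replicate 2, and no difference is read from this split. The highest counts in 1 library alone were 9 against 0 for Mir6983, from an intron of Csf1r, the receptor that macrophages depend on, and 3 in replicate 2 against 0 for Mir7051, in Etfb, an electron transfer protein.

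Nearly all members ended exactly where an intron ends. Of 176 members, 169 (96.0%) lay in an annotated intron of another gene on the same strand, against 39.5% of the 1718 other miRNA genes with coordinates. The 3′ end of the hairpin was within 5 bases of the intron's 3′ end for 163 members (92.6%) and at exactly that base for 162, against 2.15% (37 genes) of the others. Both ends were intron ends for 15 members only, and 148 had the 3′ end alone, the arrangement of a 5′-tailed mirtron. A further 4 had the 5′ end alone, among them Mir6936. Where several transcripts gave different introns, the one whose ends lay closest to the hairpin was taken. The members' introns had a median of 412 bases (quartiles 109 and 1133), against a median hairpin of 66 bases, and 64 of 169 were 200 bases or shorter. Most members thus sat at the 3′ end of an intron several times the length of the hairpin, and a minority lay in introns that short.

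**Figure D2:**
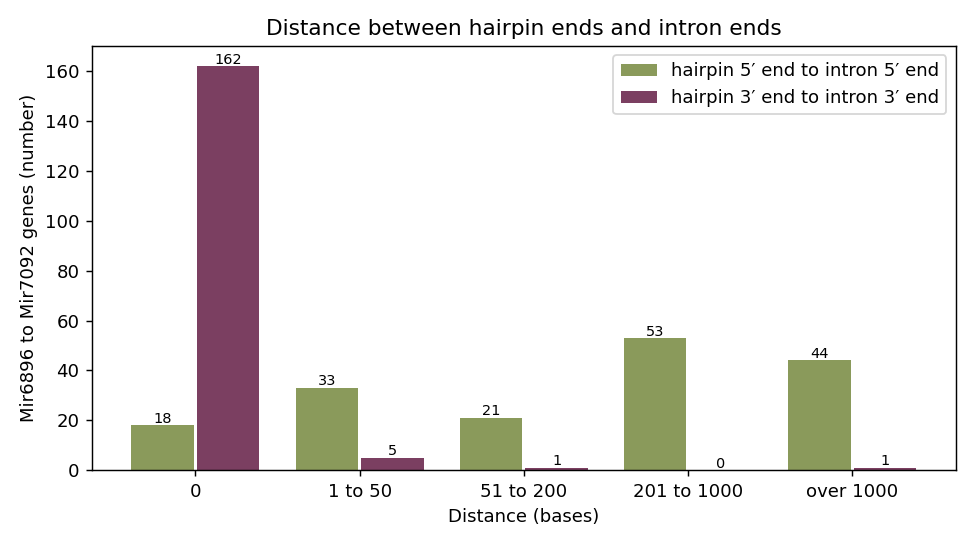
Number of members (vertical axis) by the distance in bases between hairpin end and intron end (horizontal axis, binned), for the 169 members in an intron. The hairpin's 3′ end is the last base of the intron for 162 members, whereas its 5′ end is the first base for 18 and lies over 1000 bases away for 44.

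These features had similar values in members with and without counts. The hairpin closed its intron in 51 of 54 members with counts in both libraries, in 56 of 62 with counts in 1 library and in 56 of 60 with none. Median intron length was 465, 335 and 446.5 bases in these sets, median hairpin length 65.5, 69 and 64.5 bases, and median G and C content 58.7%, 58.8% and 57.0%. These values were not tested against each other. Whole-intron members with counts in both libraries were Mir7058, Mir6958, Mir6944, Mir7068, Mir7018 and Mir7091, 6 of 15. The 15 summed to 29 and 16 counts, or 11.5 CPM ± 1.28, and the 148 at the 3′ end alone to 310 and 112, or 100.1 CPM ± 18.7. Per gene this was 0.767 and 0.677 CPM. Exons were overlapped as well: 30 members in introns also lay in an exon of another transcript, 11 of them among the 54, and 7 members lay in exons only. Of these 7, Mir6903, in a coding exon of the calcium pump gene Atp2b4, had counts in both libraries, 1 and 2.

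Annotated mature arms of the members were rich in G on the 5′ side and in pyrimidines on the 3′ side. RefSeq gives mature arms for 161 of the 176 members. Their 5p arms (n = 155) had a median of 45.5% G and 31.8% pyrimidines (C and U), against 27.3% and 50% in the 463 5p arms of other genes. Their 3p arms (n = 153) had a median of 41.7% C, 14.3% G and 71.4% pyrimidines, against 27.3%, 22.7% and 54.5% in 469 arms of other genes. The last bases of the arm were AG in 120 of the members' 3p arms (78.4%) and in 11.5% of the others. Members with counts in both libraries had a median of 70% pyrimidines in the 3p arm, and those with none 72.7%. In the 5p arm these medians were 33.3% (quartiles 27.3% and 40.9%) and 27.3% (22.7% and 33.7%). The differences were not tested. These are properties of the annotation, not of the sequenced reads. The 308 mature sequences carried 284 distinct seeds. Of these seeds, 238 occurred in 1 gene, 20 were shared between members and 33 with miRNA genes outside the range, some with both.

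**Figure D3:**
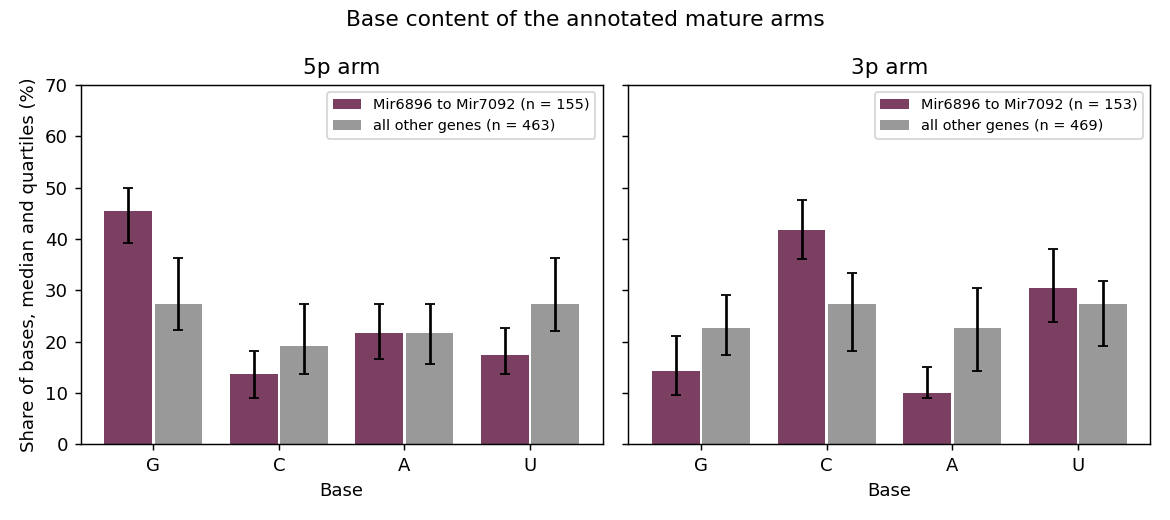
Median share of each base (vertical axis, percent; bars) with quartiles (error bars) in annotated 5p and 3p mature arms of the members and of all other genes. In the members G reaches 45.5% in 5p arms and C 41.7% in 3p arms, against 27.3% for each in the other genes.

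Other miRNA genes with the same intron geometry included several with higher counts. Outside the number range, 37 genes ended within 5 bases of an intron's 3′ end, and 17 of them (45.9%) had at least 1 count in both libraries and 5 (13.5%) at least 10. The highest was Mir382 of the noncoding gene Mirg, with 1545 and 729 counts, which ends 2 bases into the next exon. Among mouse miRNAs known to come from short introns, Mir1981 in Marc2 had 255 and 112 counts (90.1 CPM ± 4.52) and Mir877 in Abcf1 had 163 and 89 (64.3 CPM ± 6.66). Mir702, which lies in an exon of Plod3 in the annotation used here, had 25 and 12 counts, and Mir1224 had 0 and 2. Mir1981 and Mir877 fill whole introns of 82 and 85 bases, as Mir7058, with 14 and 4 counts, fills its 75-base intron. Other genes outside the range that fill an intron had fewer counts than Mir1981 and Mir877. Besides Mir1224, these were Mir3102 with 34 and 23, Mir3547 with 16 and 8 and Mir1982 with 12 and 3. Gm24589 and Gm27471 had 0 in both libraries. The highest mean of any member was the 4.93 CPM of Mir6971.

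Neighbouring number ranges also held genes with more counts. Of 156 genes numbered Mir1000 to Mir4999, 43.6% had at least 1 count in both libraries and 13.5% at least 10. Of 148 genes from Mir5000 to Mir6895 these shares were 21.6% and 6.08%, and of 97 genes above Mir7092 they were 32.0% and 5.15%. The mean level per gene was 11.3, 4.43 and 1.66 CPM in these ranges and 0.690 CPM in Mir6896 to Mir7092. Single genes carried much of some of these means. In Mir5000 to Mir6895 the highest count of any gene was 1266 of 1973 in replicate 1 and 474 of 762 in replicate 2. There 71.6% of genes had 0 in both libraries, against 34.1% in Mir6896 to Mir7092. The median count in replicate 1 was 0 there and 1 in Mir6896 to Mir7092. The share with at least 1 count in both libraries was therefore within the range of the neighbours, and the share with at least 10 was below each of them. No test was run on these shares.

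**Figure D4:**
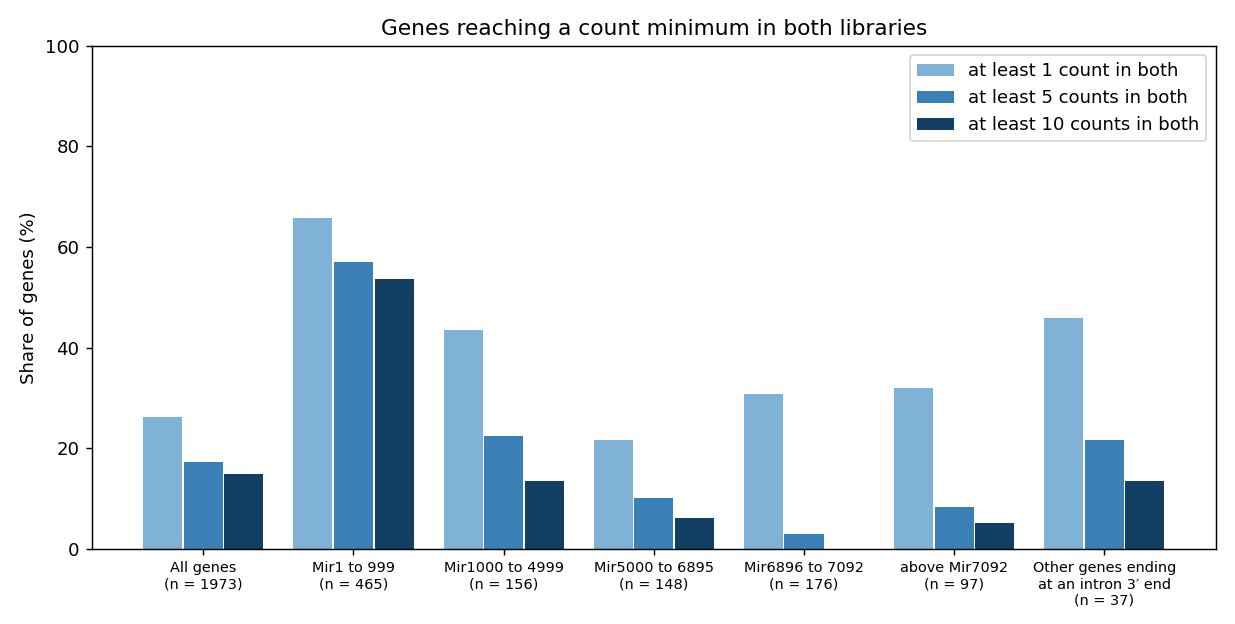
Share of genes (vertical axis, percent) with at least 1, 5 or 10 counts in both libraries, for all genes, ranges of miRNA numbers and the 37 other genes that end at an intron's 3′ end. The Mir6896 to Mir7092 genes reach 30.7%, 2.84% and 0%.

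No member had enough counts in both libraries for the main gene-by-gene comparison. The exact binomial comparison of replicate 2 with replicate 1, adjusted by Benjamini-Hochberg, requires 10 or more counts in each library, which left 294 genes and 0 members. The binomial test, which allows for counting error only, called 128 of these genes (43.5%). An exact test by edgeR with a common negative binomial dispersion was also run. Its dispersion was estimated from the same 2 libraries without a group term, so it takes in the difference being tested. Few calls were thus fixed in advance, and that test cannot say how many of the 128 differ beyond counting error. With every gene that had at least 1 count in either library, the binomial test called 124 of 684 (18.1%) and 0 of 116 members. There, 161 of the 684 genes and 4 of the 116 members passed at an unadjusted exact p under 0.05. The 4 were Mir6983 (9 and 0 counts), Mir7051 (0 and 3), Mir6958 (2 and 5) and Mir7026 (1 and 4). The smallest adjusted exact p of a member was 0.159. With 1 library per pup, these values compare libraries and cannot show a difference between pups.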

How the data were processed

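Small RNA of 2 thymus libraries was analysed. The authors deposited 1 table per library with raw read counts per miRNA gene, unnormalized and not pooled, from reads mapped to mm10 and counted over GENCODE M4, per the text files deposited with the tables. The sources used here name no aligner or counting tool. The 3 unnamed count columns hold, from the values, the sum, the gene strand and the opposite strand. Rows for unmapped, multimapping, unassigned (2.99% and 2.57% of reads) and ambiguous reads were left out.

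Of 1973 identifiers, 1894 matched GENCODE M21 (GRCm38), which gave symbols, hosts and introns; the other 79 had 0 gene-strand counts. CPM used gene-strand totals. Replicate 2 was set against replicate 1 gene by gene with an exact binomial test (two-sided) on TMM effective sizes (edgeR 4.0.16, R 4.3.3, scipy 1.17.1). Benjamini-Hochberg adjustment was applied at 0.05. The test was checked on simulated counts with counting error only, so that check could not show the effect of a wider spread between libraries. Named genes are members with at least 1 count in both libraries, ordered by mean CPM, the 12 highest in full; hosts are given for 53 of the 54, and 1 is not reported here. Members and lists were chosen with earlier results of these data known. Alternatives were the other count columns, other minimums and scalings (DESeq2 1.42.0 included), each library alone, a negative binomial test, and other tolerances at intron ends.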

Additional observations from a re-analysis of the deposited data

How the results depend on the processing

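Depth set what could be seen. In replicate 1 alone, 100 members had at least 1 count, 7 had at least 10 and 76 had 0, and in replicate 2 alone these were 70, 0 and 106. Dividing the counts of replicate 1 down to the total of replicate 2 left 35 members with at least 1 in both libraries. Every member with 1 or 2 counts in replicate 1 falls below 1 by that division. On the opposite strand 0 members had counts in both libraries and 175 had 0 in both. A minimum of 5 counts in both libraries kept 5 members, and minimums of 20 and 100 kept 0. The summed level ran from 104 CPM (unstranded) to 134 CPM (replicate 1 alone). Over all genes, edgeR's exact test is not set against the 128 calls of the binomial test, because its dispersion came from the same 2 libraries. DESeq2 size factors called 61 genes higher and 58 lower in replicate 2, total counts 72 and 52, against 59 and 69 by TMM. Whole-intron members numbered 14 to 17 with tolerances of 0 to 10 bases. No paired analysis was possible because the study has 1 group.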
